A study of Sus scrofa with 8 samples.

Results

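The Notch pathway genes were followed through peaks of open chromatin in cultured porcine muscle satellite cells, the stem cells that proliferate and then fuse into muscle fibres. The set comprised the receptors NOTCH1, NOTCH2 and NOTCH3, the ligands DLL1 and JAG1, the DNA-binding factor RBPJ and the target genes HES1, HEY1 and HEYL. Peaks of all 8 libraries were merged wherever they shared 1 bp, which gave 178498 regions. Each region was linked to the gene with the nearest end within 50 kb, among the protein-coding genes of the RefSeq table for Sscrofa11.1. Of all merged regions, 118 were linked to these genes: 33 to RBPJ, 21 to NOTCH2, 15 to HES1, 14 each to HEY1 and JAG1, 8 to HEYL, 7 to DLL1 and 6 to NOTCH3. The table places NOTCH1 on no named chromosome, so no region was linked to it, and it was not analysed here. Only 14 of the 118 regions lay within 1 kb of a gene end. The table gives no strand, so the ends of a gene are called lower and upper by their coordinates, and which of them is the start is not stated. Exons and introns are not in the table either, so a region is described only as inside a gene, outside it or across its end.

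Accessibility was read out with ATAC-seq: a transposase cuts accessible DNA and tags it with adapters for sequencing, so that reads pile up where chromatin is open. The 8 libraries form 4 groups of 2, labelled WT or CBP at 0 h, given as proliferation, and WT or CBP at 60 h, given as differentiation. A treatment protocol shared by all labels names SGC-CBP30, a bromodomain ligand of CBP and EP300, which are histone acetyltransferases, at 5 uM/ml for 48 h in proliferation and for 60 h in differentiation. The labels do not say which groups received it, so the groups are named as labelled. All libraries are labelled as pig muscle satellite cells, yet the cell line field of each names C3H, grown in RPMI. The deposited peaks lie on pig chromosomes of Sscrofa11.1. Nothing in the labels says that the libraries of a group came from separate cultures or animals, so p-values measure only the spread between libraries, which may be technical.

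In Notch signalling, a DLL or JAG ligand on one cell binds a NOTCH receptor on its neighbour, and cleavage of the receptor releases its intracellular domain. That domain enters the nucleus and joins RBPJ, which otherwise recruits repressors, to activate genes such as HES1, HEY1 and HEYL, whose products are themselves transcriptional repressors. In skeletal muscle the pathway is known for keeping satellite cells undifferentiated and for restraining the myogenic programme.

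Per library, the deposited lists held 121757 to 135528 peaks on the autosomes and X at 0 h and 82696 to 88871 at 60 h. The 0 h libraries were 1.43 to 2.08 times as deep as the shallowest library and the 60 h libraries 1 to 1.21 times, judged by the background level that the authors' fold and −log10 p imply. Depth therefore moved with time, and its part in the calls was not tested; the main counts are also given with equal peak numbers, that is, with the same number of peaks taken from each library. In bulk libraries, a smaller share of cells with an open site and less opening per cell cannot be told apart. All 7 satellite cell and myoblast markers (PAX7, MYF5, MYOD1, CDH15, DES, MET and CALCR) had a region within 1 kb of a gene end called in every library. The same held for 1 of 5 markers of differentiated muscle, 3 of 5 of fibroblasts, 2 of 4 of endothelium, 1 of 4 of immune cells and 0 of 4 of neural and Schwann cells. Calls within 1 kb of the fibroblast markers numbered 4 to 6 per library at 0 h and 4 in each at 60 h. Those of satellite cells and myoblasts were 7 to 8 and 7, and those of differentiated muscle 3 to 6 and 4 to 5. Endothelial markers had 3 to 4 and 2 to 3, immune markers 1 to 2 and 1, and neural and Schwann markers 0 at both times. Of all regions within 1 kb of a gene end, 84.1% to 89.0% were called at 0 h and 73.7% to 75.5% at 60 h. The part of these cell types in the results was not tested.

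More of the Notch regions were called at 0 h than at 60 h. At 0 h the WT libraries called 88 and 95 of the 118 regions and the CBP libraries 97 and 82. At 60 h the numbers were 61 and 56 for WT and 61 and 66 for CBP. Every 0 h library thus stood above every 60 h library, and 38 regions were called only at 0 h against 5 only at 60 h. Over all 114950 linked regions the numbers were 37919 and 8164. With equal peak numbers the contrast was much smaller, at 14 Notch regions only at 0 h and 10 only at 60 h, against 10358 and 15635 of all linked regions. As shares, the Notch regions ran from 69.5% to 82.2% at 0 h and from 47.5% to 55.9% at 60 h. Over all regions linked to any gene the corresponding shares were 65.6% to 74.7% and 46.2% to 48.4%. With the same number of peaks taken from each library, 72, 69, 68 and 69 Notch regions were called at 0 h and 60, 56, 60 and 62 at 60 h. Over all linked regions the same restriction gave 47.0% to 48.1% at 0 h and 45.3% to 46.6% at 60 h, against 57.6% to 61.0% and 47.5% to 52.5% for the Notch regions.

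**Figure D1:**
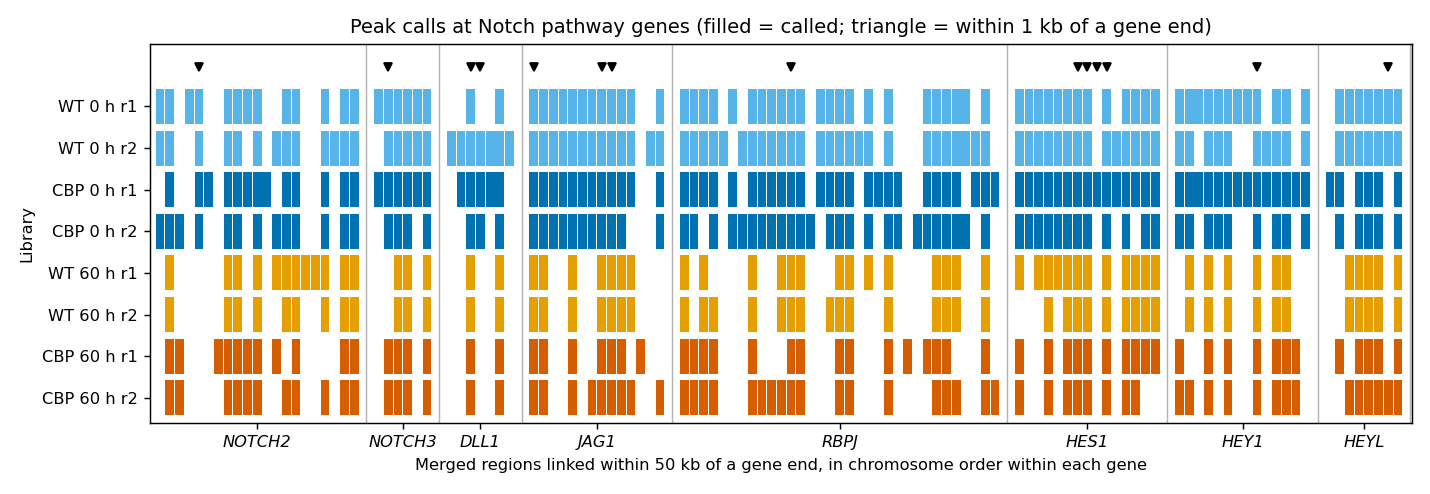
Peak calls in the 118 regions linked to Notch pathway genes. Each column is a region, in chromosome order within its gene, each row is a library, filled cells are calls and triangles mark the 14 regions within 1 kb of a gene end. The 0 h rows hold 82 to 97 filled cells and the 60 h rows 56 to 66.

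Of the 118 regions, 43 (36.4%) were called in every library, against 28.3% of all merged regions and 31.8% of all linked regions. With equal peak numbers 39 (33.1%) were, against 25.2% and 28.6%. At the other extreme, 19 regions (16.1%) were called in a single library, against 22.6% of all regions and 21.4% of all linked regions. Within 1 kb of a gene end, 9 of 14 Notch regions were called in every library, against 65.8% of all such regions. Regions called in every library were wide, with a median of 1164 bp, and those called in a single library had a median of 265 bp. By place, 57 regions lay inside a Notch gene, 56 outside and 5 across a gene end.

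Over all 8 libraries, 7 Notch regions were closed with time, that is, called in 4 of 4 libraries at 0 h and in 0 of 4 at 60 h. They make up 5.93% of the 118, against 5.68% of all regions, so with the peaks as deposited the share is near the background. None was opened in the reverse sense, against 0.131% of all regions. The 7 regions were 3 inside JAG1, 2 in the surroundings of HEY1, and 1 each beside NOTCH2 and HES1. Each has a two-sided exact permutation p = 0.0286, the smallest that 4 libraries against 4 allow, and an adjusted p = 0.491 after Benjamini-Hochberg adjustment over all regions. No region of the 178498 passed that adjustment, and 10378 had an unadjusted p under 0.05. With equal peak numbers, 5 Notch regions (4.24%) were closed, against 1.39% of all regions, and 1 (0.847%) was opened, against 0.752%. Within 1 kb of a gene end, 1 of the 14 Notch regions was closed, against 2.39%. Leaving out a library loosens the rule: 11 regions were closed without the second CBP library at 60 h and 8 to 10 without any other.

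Taken by label, 21 regions (17.8%) were called in both WT libraries at 0 h and in neither at 60 h, against 15.1% of all regions. None was called in the reverse direction, against 0.654%. Restricted to equal peak numbers, 10 regions (8.47%) were closed in WT, against 4.25% of all regions, and 1 (0.847%) was opened, against 2.71%. In the CBP libraries 14 regions (11.9%) were closed, against 14.9%, and none was opened, against 1.82%. At equal peak numbers 11 (9.32%) were closed in CBP, against 5.85%, and 3 (2.54%) were opened, against 4.33%. The smallest exact p that 2 libraries against 2 allow is 0.333, so these counts carry no test. With a library left out, the closed counts rose at most to 34 in WT, without its first 0 h library, and to 30 in CBP, without its second 0 h library. Without the second CBP library at 60 h the CBP count was 23. The opened counts then reached 2 in WT, without its second 60 h library, and 1 to 4 in CBP.

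Peak strength could be compared only in the 43 regions called everywhere. The measure was the authors' fold, the summit pileup over local background, quantile-normalised on the log2 scale over the 50575 regions called in all libraries, so that only a region's rank within its library counts. The authors' fold as such is not comparable between libraries of different depth, and depth moved with time. The folds printed below are therefore descriptive, and only the normalised values were tested. Where the folds of the times are said to overlap or not, that is descriptive too and adds no test. Where 4 values of a time are listed, the pair from WT comes before the pair from CBP. Strength was tested with limma at an adjusted p under 0.05 over all 50575 regions. From 0 h to 60 h, averaged over both labels, 12 of the 43 regions rose and 4 fell, or 27.9% and 9.30%. Over all tested regions 18.7% rose and 14.8% fell. The median log2 difference was 0.07 in the Notch regions and 0.03 in all. Of the 16 regions that changed, 14 had ranks within the library that did not overlap between the times. The share of all tested regions without such overlap is not given here. Distance mattered for the background: within 1 kb of a gene end 38.8% of all tested regions rose and 3.0% fell, while beyond 1 kb 12.1% rose and 18.8% fell. Among the Notch regions, 3 of 9 within 1 kb rose and none fell, and 9 of 34 beyond 1 kb rose and 4 fell. With a library left out, its group holds 1 library, so counts from those fits are not set against these shares. The median log2 difference over all tested regions then lay between 0.025 and 0.028.

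**Figure D2:**
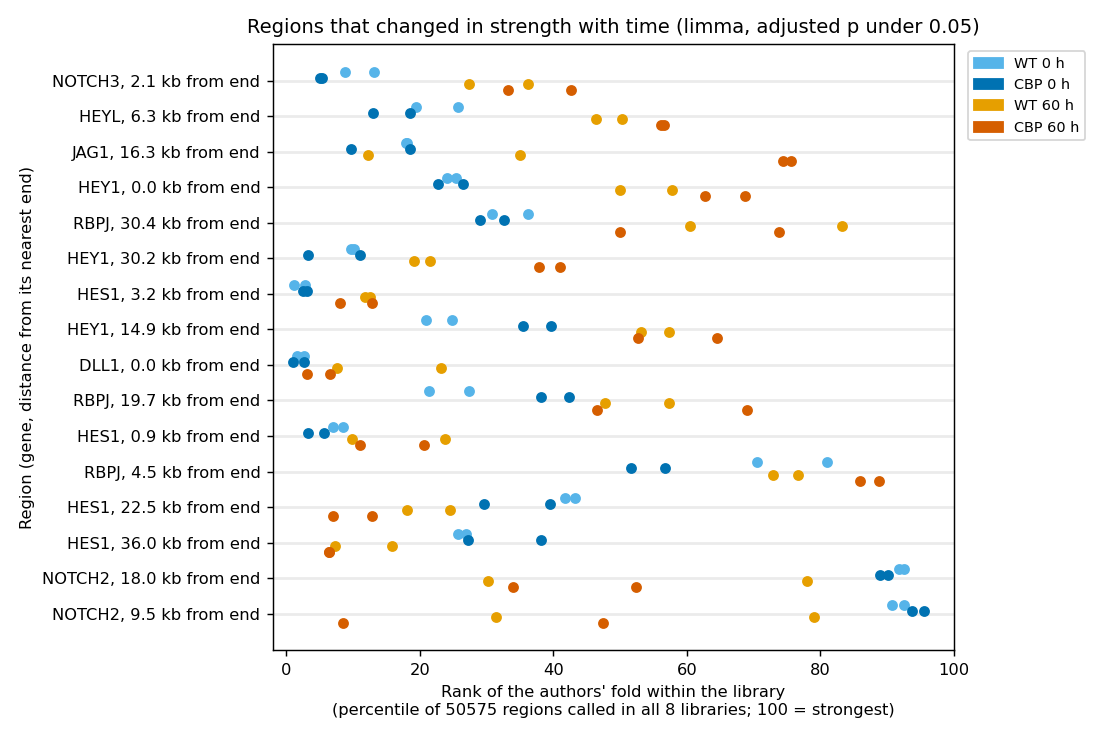
Rank of each of the 16 regions that changed in strength with time, as a percentile of the authors' fold among regions called in all 8 libraries. Points are libraries, coloured by group; the NOTCH3 region runs from 5.07 to 13.1 at 0 h and from 27.4 to 42.7 at 60 h, while both NOTCH2 regions lie at 88.9 or higher at 0 h and at 79.0 or lower at 60 h.

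Regions of the receptor genes changed in both directions. NOTCH3, a receptor found on satellite cells and on the smooth muscle of vessels, spans chr2:62364507-62402348. Of its 6 regions, 6, 5, 6 and 4 were called at 0 h and 3, 3, 4 and 4 at 60 h. With equal peak numbers the counts were 3, 3, 4 and 3 at 0 h and 3, 3, 4 and 4 at 60 h. Inside NOTCH3, the region at chr2:62366642-62367585 lay 2.1 kb from the lower end. Its folds at 0 h were 4.16 and 3.67 in WT and 3.35 and 3.40 in CBP. At 60 h its folds were 5.35 and 4.73 in WT and 4.86 and 5.58 in CBP. All lay above the 0 h folds, and its ranks within the libraries were likewise without overlap. The log2 difference on the normalised scale was 0.53 ± 0.080 (SE, limma adjusted p = 0.00262), the smallest adjusted p among the 43 tested Notch regions. The other 2 tested NOTCH3 regions did not pass. The gene's strongest region, 17.6 kb inside, had a median fold of 6.43 and a log2 difference of −0.11 ± 0.079 (limma adjusted p = 0.291).

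The region across the lower end of NOTCH3, at chr2:62364383-62365988, was weak throughout. Its folds were 2.03 and 2.29 in WT and 2.69 and 2.51 in CBP at 0 h. At 60 h it was called in both CBP libraries, at 2.71 and 2.33, and in neither WT library. With equal peak numbers it was called at 0 h in a single CBP library and at 60 h again in both CBP libraries and neither WT library.

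NOTCH2, a receptor that satellite cells also carry, spans chr4:100951522-101152348. Of its 21 regions, 13 were called in each 0 h library and 12, 9, 11 and 11 at 60 h. With equal peak numbers the counts were 10, 11, 9 and 10 at 0 h and 11, 9, 11 and 11 at 60 h, so the times overlapped. At that setting NOTCH2 had 1 region called only at 0 h and 4 only at 60 h. Its strongest region, 14.5 kb outside the lower end, had a median fold of 9.03 and ranked between the 70.6th and 96.5th percentile in all libraries, and it did not pass the test (log2 difference 0.01 ± 0.11, limma adjusted p = 0.956). A pair of other NOTCH2 regions fell. Outside the upper end, 9.5 kb away, the region at chr4:101161828-101162682 had folds of 9.70, 8.94, 10.03 and 9.93 at 0 h, in the order WT then CBP. At 60 h the folds were 7.94 and 4.90 in WT and 3.59 and 5.82 in CBP. The 0 h values lie close together and the 60 h values are spread widely below them. The log2 difference was −0.80 ± 0.17 (SE, limma adjusted p = 0.00793), the largest fall among the 43 tested regions.

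Inside NOTCH2, 18 kb from the lower end, the region at chr4:100969571-100970873 had folds of 9.71 and 9.09 in WT and 9.20 and 9.25 in CBP at 0 h. At 60 h they were 5.04 and 7.66 in WT and 5.79 and 5.17 in CBP, all below the 0 h range. Its log2 difference was −0.61 ± 0.13 (SE, limma adjusted p = 0.00887). Only 468 bp outside the lower end, the region at chr4:100950486-100951054 was closed: its folds were 5.96, 4.90, 4.75 and 4.78 at 0 h, and no 60 h library called it. At equal peak numbers it lost the call in 1 of the 4 libraries at 0 h. The body of NOTCH2 holds 20 further regions more than 50 kb from either end or nearer to another gene, 6 of them called in every library and 2 closed with time, which are not among the 118.

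Among the ligand genes, JAG1 kept its ends, and with the peaks as deposited its closed regions lay inside the gene. JAG1, which encodes a ligand of the Jagged class, spans chr17:19591248-19629659 and had 14 regions, of which 12, 13, 12 and 11 were called at 0 h and 7, 7, 7 and 9 at 60 h. With equal peak numbers the counts were 12, 10, 10 and 11 at 0 h and 7 in each library at 60 h, so the times did not overlap in either form, as also held for all linked regions together. The 3 closed regions, 21.4% of the 14 against 5.68% of all regions, all lay inside the gene. The region at chr17:19610213-19611130, near the middle of the gene, had folds of 4.02 and 3.90 in WT and 3.79 and 4.90 in CBP at 0 h and no call at 60 h, also with equal peak numbers. Its neighbour at chr17:19609726-19610131 had folds of 3.99, 2.97, 3.60 and 4.22 at 0 h and no call at 60 h. The region at chr17:19620987-19621569, 8.1 kb from the upper end, had 3.44, 2.82, 2.99 and 3.42. The last pair did not keep all their 0 h calls with equal peak numbers. At that setting 3 JAG1 regions were again closed, against 1.39% of all regions. They were that near the middle, 1 at 6.4 kb inside the upper end and 1 at 47.1 kb outside it. With deposited peaks the latter pair was also called in the second CBP library at 60 h.

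Between these closed stretches lies the JAG1 region that rose. At chr17:19612233-19613379, 16.3 kb inside the upper end, the folds at 0 h were 4.48 and 4.35 in WT and 3.79 and 4.53 in CBP. At 60 h they were 5.28 and 3.95 in WT but 7.19 and 7.44 in CBP. Both CBP libraries at 60 h stand above all other libraries, and the WT libraries at 60 h overlap the 0 h range. In CBP the log2 difference with time was 0.90 ± 0.15 (SE, limma adjusted p = 0.0076) and in WT 0.07 ± 0.15 (limma adjusted p = 0.761). The CBP change lost its call without the first CBP library at 0 h (adjusted p = 0.0646). The difference between those changes, 0.82 ± 0.21, had a limma adjusted p = 0.194 and did not pass. Compared directly at 60 h, CBP exceeded WT by 0.73 ± 0.15 (SE, limma adjusted p = 0.0305). This was the only call between labels among the 43 regions, against 1.73% of all regions higher and 2.31% lower in CBP. It was lost when any library but the first WT library at 60 h was left out, with adjusted p-values of up to 0.0899.

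The gene ends of JAG1 stayed accessible in all 8 libraries. The region across the upper end, at chr17:19628975-19630693, had folds between 3.90 and 4.32 at 0 h and between 4.39 and 4.63 at 60 h, a log2 difference of 0.19 ± 0.074 that did not pass (limma adjusted p = 0.0707). Beside it, 973 bp inside the gene, the region at chr17:19627095-19628686 had a difference of 0.20 ± 0.075 (limma adjusted p = 0.0604). At the lower end, 650 bp outside, the difference was 0.04 ± 0.10 (limma adjusted p = 0.802). The strongest JAG1 region lay 12.8 kb inside the lower end, with a median fold of 6.96.

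DLL1, a ligand of the Delta class that myoblasts present to satellite cells, spans chr1:198815-211346. It had 7 regions, and the number called was 2 and 7 in WT and 5 and 3 in CBP at 0 h, then 2 in every library at 60 h. With as many peaks from each library the range was 1 to 3 at 0 h and 2 at 60 h, so the groups overlapped. The same 2 regions were called in all 8 libraries. That across the lower end, at chr1:198254-199653, had folds of 3.03, 2.74, 2.95 and 2.65 at 0 h and 3.73, 4.5, 3.46 and 3.25 at 60 h, with no overlap. Its log2 difference was 0.34 ± 0.10 (SE, limma adjusted p = 0.0288), and it lost the call without any library but the first WT and the second CBP library at 60 h (adjusted p up to 0.101). A second region near that end, 993 bp inside, was called in 3 of 4 libraries at 0 h and in none at 60 h. DLL1's highest median fold, 3.38, belonged to a peak found only in the second WT library at 0 h.

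RBPJ, through which all NOTCH receptors act on DNA, spans chr8:19933035-20166746 and had the most regions. The 0 h libraries called 23, 26, 26 and 25 of its 33 regions and the 60 h libraries 14, 15, 15 and 18. With equal peak numbers the count was 19 in each 0 h library and 14, 15, 15 and 17 at 60 h, again without overlap. As shares these are 57.6% at 0 h and 42.4% to 51.5% at 60 h. All linked regions together had 47.0% to 48.1% and 45.3% to 46.6%, and their times did not overlap in either form. With the peaks as deposited, none of the 33 was closed over all 8 libraries, while 2 regions deeper in the gene body that are not linked to it were. None of the 33 was closed with equal peak numbers either. With −log10 q of at least 5, 2 (6.06%) were closed, against 6.75% of all regions. With a 50% overlap for a call, 4 (12.1%) were, against 7.93%. The region nearest an end, 924 bp outside the lower end, was called in all libraries with folds between 3.76 and 5.53 and did not pass (log2 difference 0.20 ± 0.094, limma adjusted p = 0.127).

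A strength change passed the test in 3 of 10 RBPJ regions, all of them increases, while over all tested regions 18.7% rose and 14.8% fell. Inside the gene, 30.4 kb from the lower end, the region at chr8:19963446-19964672 had folds of 5.60, 5.08, 5.31 and 5.21 at 0 h and 6.65, 8.13, 7.07 and 5.95 at 60 h, without overlap. The log2 difference was 0.46 ± 0.10 (SE, limma adjusted p = 0.00983). Ranked by recovered pileup in place of fold, the sign turned to −0.11 (adjusted p = 0.472), and by −log10 p the call was lost (adjusted p = 0.266). The region at chr8:19910834-19913295, 19.7 kb outside the lower end, rose by 0.31 ± 0.090 (limma adjusted p = 0.0264). It lost the call without any library but the first WT and the second CBP library at 60 h (adjusted p up to 0.0916) and turned to −0.06 by pileup. The strongest RBPJ region, at chr8:19937578-19939725 and 4.5 kb inside, had a median fold of 7.50 and a log2 difference of 0.23 ± 0.077 over both labels (limma adjusted p = 0.0478), with overlapping times. By label the difference was −0.02 in WT and 0.47 in CBP (limma adjusted p = 0.931 and 0.022), and the difference between them did not pass (adjusted p = 0.278). The call over both labels was lost whichever library was left out, with adjusted p-values from 0.0643 to 0.161. The RBPJ body holds 30 further regions that are not linked to it, 9 of them called in every library.

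**Figure D3:**
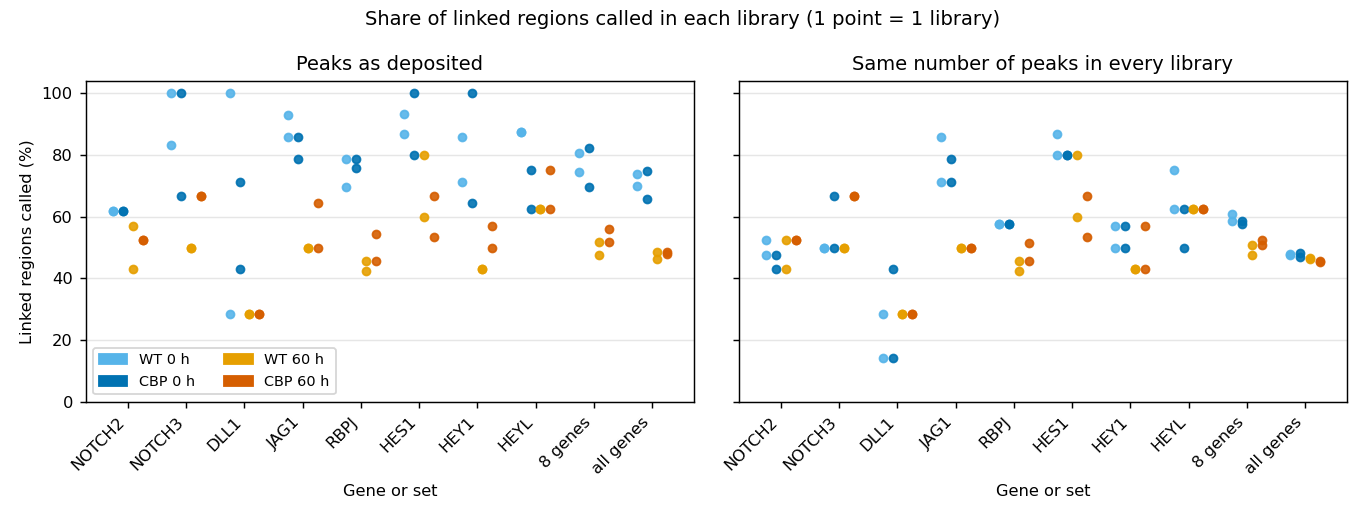
Percentage of the linked regions called in each library, by gene, for the 8 Notch genes with regions together and for all linked genes. The left panel uses the peaks as deposited and the right panel the same number of peaks from every library. In the right panel JAG1 and RBPJ still separate 0 h from 60 h, as do the 8 genes together and all linked genes.

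Of the 16 regions that changed in strength, 8 belonged to the target genes. These were 4 of 6 tested regions of HES1, 3 of 5 of HEY1 and 1 of 4 of HEYL. Over all tested regions 18.7% rose and 14.8% fell. HES1, a repressor whose level oscillates in many progenitor cells, is a short gene at chr13:131135970-131137865 with regions spread over both sides. With the peaks as deposited it kept most of them, with 13, 14, 15 and 12 of 15 called at 0 h and 12, 9, 10 and 8 at 60 h. At equal peak numbers the counts were 13, 12, 12 and 12 at 0 h and again 12, 9, 10 and 8 at 60 h, so the times overlapped in both forms. The closed count depended on the rule for a call. It was 1 of 15 (6.67%) in both forms, but 6 (40%, against 7.93% of all regions) with a 50% overlap. On the lower side, 2 distant regions fell. At chr13:131098778-131099941, 36.0 kb away, the folds were 4.99, 4.86, 5.0 and 5.74 at 0 h and 4.27, 3.64, 3.45 and 3.59 at 60 h. The log2 difference was −0.43 ± 0.085 (SE, limma adjusted p = 0.00649), with every 60 h library below every 0 h library.

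Another HES1 region on that side, at chr13:131112559-131113461 and 22.5 kb away, fell from 5.99, 5.64, 5.69 and 5.25 to 4.76, 4.27, 3.89 and 3.65. Its log2 difference was −0.39 ± 0.083 (SE, limma adjusted p = 0.00824). Farther out at 44.3 kb, the region at chr13:131090952-131091642 had folds of 5.69, 4.01, 4.18 and 4.15 at 0 h and was closed at 60 h, also with equal peak numbers. A pair of regions at 38.7 kb and 23.9 kb was called in all 0 h libraries and at 60 h only in the first WT library. The most distant on that side, at 48.8 kb, was called in 7 libraries, with folds of 4.32 to 5.77 at 0 h and 3.17 to 5.35 at 60 h that overlap, and was not tested for strength.

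Closer to HES1, 2 of the tested regions rose. The region at chr13:131141082-131141902, 3.2 kb outside the upper end, had folds of 2.69, 2.98, 3.05 and 3.01 at 0 h and 4.09, 3.92, 3.58 and 4.06 at 60 h. It rose by 0.38 ± 0.080 (SE, limma adjusted p = 0.00842). The region 910 bp outside the lower end, at chr13:131133391-131135060, rose by 0.28 ± 0.095 (limma adjusted p = 0.0478), lost the call without any library but the first WT and the second CBP library at 60 h (adjusted p up to 0.143) and turned to −0.06 when ranked by pileup. The regions 95 bp outside the lower end and 223 bp inside the upper end did not pass, with differences of −0.04 ± 0.084 and −0.10 ± 0.084 (limma adjusted p = 0.704 and 0.372). Their folds, at most 2.72, ranked at most at the 0.782th percentile of regions called everywhere, while their recovered summit pileups reached 118. A further peak 44 bp inside HES1 was called in a single CBP library at 0 h. HES1's highest median fold, 6.88, belonged to a region 19.4 kb outside the upper end that was called in 7 libraries.

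HEY1, a repressor that acts downstream of Notch in satellite cells, spans chr4:56859640-56863807. Of its 14 regions, 12, 10, 14 and 9 were called at 0 h and 6, 6, 7 and 8 at 60 h. With equal peak numbers HEY1 had 8, 7, 8 and 7 at 0 h and 6, 6, 6 and 8 at 60 h, so the times overlapped. Across its lower end, the region at chr4:56858758-56860533 had folds of 4.97 and 4.70 in WT and 4.73 and 5.04 in CBP at 0 h. At 60 h they were 6.48 and 5.83 in WT and 6.34 and 7.03 in CBP. All 60 h values exceed all 0 h values, and the rank moved from the 22.7th to 26.4th percentile at 0 h to the 50.02th to 68.6th at 60 h. The log2 difference was 0.48 ± 0.075 (SE, limma adjusted p = 0.00303). Ranked by recovered pileup it was 0.10 (adjusted p = 0.41), and the call was lost.

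On the lower side of HEY1 the regions went both ways. At 30.2 kb, the region at chr4:56828672-56829446 rose from folds of 3.86, 3.77, 3.07 and 3.98 to 4.45, 4.43, 5.09 and 5.50, a log2 difference of 0.44 ± 0.087 (SE, limma adjusted p = 0.0066). It was also the Notch region that opened with equal peak numbers. At 14.9 kb, the region at chr4:56842671-56844775 rose by 0.36 ± 0.078 (limma adjusted p = 0.00878) but turned to −0.12 by pileup and lost its call by −log10 p (adjusted p = 0.329). Between them, at 20.5 kb, the region at chr4:56838607-56839148 had folds of 3.32, 4.15, 4.21 and 3.92 at 0 h and was closed at 60 h, also with equal peak numbers. On the upper side, 44.1 kb away, chr4:56907954-56908518 was closed from folds of 4.68, 4.16, 3.72 and 3.98. The strongest HEY1 region, 3.3 kb outside the upper end with a median fold of 6.78, did not pass (log2 difference −0.18 ± 0.097, limma adjusted p = 0.165).

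HEYL, a HEY relative that Notch activates in muscle stem cells, spans chr6:95442655-95459597. Of its 8 regions, 7, 7, 6 and 5 were called at 0 h and 5, 5, 5 and 6 at 60 h, and the groups overlapped. With as many peaks from each library they were 5, 6, 5 and 4 at 0 h and 5 in each at 60 h. Inside the gene, 6.3 kb from the upper end, the region at chr6:95452248-95453283 had folds of 4.60, 4.79, 4.45 and 4.14 at 0 h. At 60 h they were 6.06, 5.65, 6.0 and 6.27, all above the 0 h range. The log2 difference was 0.49 ± 0.077 (SE, limma adjusted p = 0.00305). The strongest HEYL region, 5.7 kb outside the upper end with a median fold of 6.31, had a difference of 0.19 ± 0.13 (limma adjusted p = 0.276). Across the upper end, the region at chr6:95458685-95459720 was called in both WT libraries at 0 h, at 2.51 and 2.12, and elsewhere only in the second CBP library at 60 h, at 3.06.

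**Figure D4:**
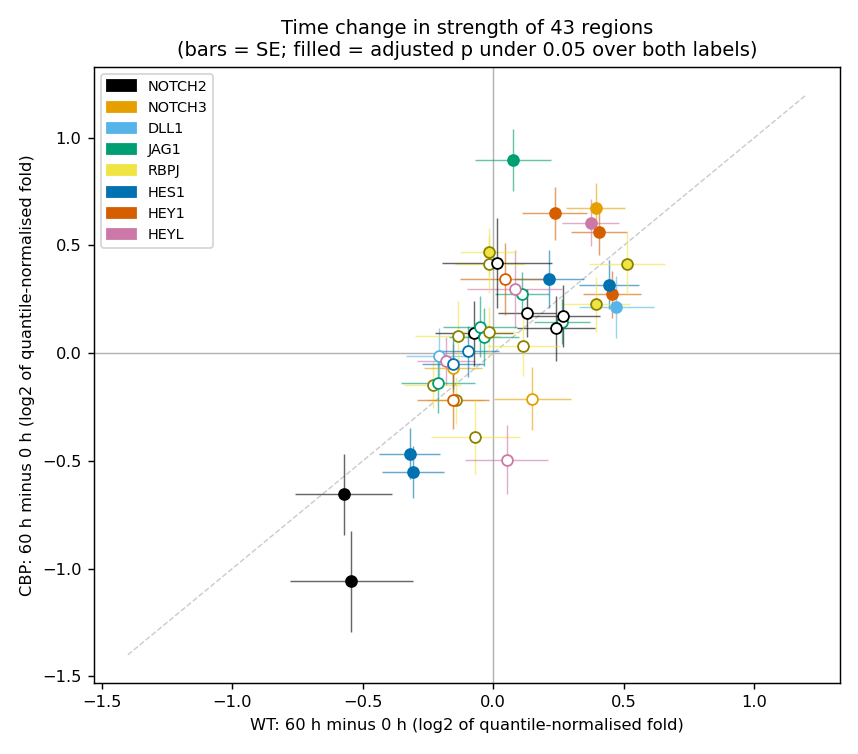
Change in strength from 0 h to 60 h in WT (x axis) and CBP (y axis) for the 43 Notch regions called in all libraries, as log2 of the quantile-normalised fold, with bars for SE. Filled points passed the test over both labels; the JAG1 region at 0.07 in WT and 0.90 in CBP stands farthest above the line of equal change.

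Tested within each label, fewer changes passed. In WT, 3 of the 43 regions rose, the HEY1 regions across the lower end and at 14.9 kb and the HES1 region at 3.2 kb. None fell, against 4.15% and 4.48% of all regions. The adjusted p-values of the 3 lay between 0.0392 and 0.0478 (limma), and each was lost without any of 6 libraries, that is, all but the CBP libraries at 60 h. With either WT 0 h library left out, no region of the 50575 passed. In CBP, 6 regions rose and 4 fell, against 9.09% and 8.82%. Those that rose were the JAG1 region at 16.3 kb, the NOTCH3 region at 2.1 kb, the HEYL region at 6.3 kb, the RBPJ region at 4.5 kb and the HEY1 regions across the lower end and at 30.2 kb. The 4 that fell were the same HES1 and NOTCH2 regions that fell over both labels. Without the first CBP library at 0 h none of the 43 passed in either direction, and without the second 2 rose and none fell. Leaving out either WT library at 0 h or either CBP library at 60 h brought the regions that fell to 2. The difference between the changes in WT and CBP passed for 0% of all regions and for none of the 43, of which 5 had an unadjusted p under 0.05 in limma and 5747 of all regions did.

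Between labels at the same time, calls differed in few Notch regions. At 0 h, 1 region was called in both CBP and neither WT library, against 2.51% of all regions. It lay inside RBPJ, 45.7 kb from the lower end, with folds of 4.01 and 3.15. In the reverse direction there were 2, against 3.47%, both at HEYL. The stronger of these lay 9.4 kb outside the lower end at chr6:95432376-95433276, with folds of 4.41 and 5.24 in WT at 0 h, and it was called again in 3 of 4 libraries at 60 h. With a library left out the first count was 2 to 8 and the second 3 to 8, each at its highest without the second CBP and the first WT library respectively. In strength, CBP and WT at 0 h differed in 0% of all regions and in none of the 43 (limma), with 1 Notch region and 3441 of all at an unadjusted p under 0.05.

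At 60 h, 6 Notch regions were called in both CBP libraries and neither WT library, 2 each at NOTCH2 and HEY1 and 1 each at NOTCH3 and RBPJ. That is 5.08% of the 118, against 4.01% of all regions. None went the other way, against 3.19%. By the lower −log10 q of its CBP libraries, the leading region was that of RBPJ 41.2 kb outside the lower end, at chr8:19890363-19891871. Its folds were 4.58 and 3.65 in WT and 3.39 and 4.20 in CBP at 0 h, and 3.49 and 3.08 in CBP at 60 h. Like the region across the lower end of NOTCH3, it was called in all 0 h libraries and missed only by WT at 60 h. None of the 6 reached −log10 q of 5 in both CBP libraries. Counting only peaks with −log10 q of at least 5, the balance turned: 1 region was called in both CBP and neither WT library, against 2.89% of all regions, and 4 the other way, against 2.67%. With 2 libraries a group these counts carry no test. Without the first or the second CBP library the count of 6 became 12 or 11, and the reverse count, 0, became 7 without the second CBP library and 5 without the second WT library.

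The rest of the pathway was described through 41 other genes, among them further ligands and receptors, the secretases that cleave the receptor, glycosyltransferases, ubiquitin ligases and cofactors. Of these, 37 had linked regions, 297 in all. Closed with time were 13 (4.38%, against 5.68% of all regions) and 1 was opened, beside MAML2, which encodes a coactivator of the RBPJ complex. Of the 297, 6 were closed and 2 opened with equal peak numbers, against 1.39% and 0.752% of all regions. Called in every library were 105 (35.4%, against 28.3% of all regions and 31.8% of all linked regions). Of these, 30 rose and 10 fell in strength, against 18.7% and 14.8% of all tested regions, with a median log2 difference of 0.08. Ligand DLL4 had 1 closed region of 6 and DLL3 none of 7.

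Among 4069 genes with at least 10 linked regions, the profile of called shares over the 8 libraries was nearest to that of the Notch regions in ARHGAP10, at a distance of 8.89 percentage points. It was followed by ANXA2 at 9.42, ABCC1 at 10.1 and TRIO and CASZ1 at 10.2 each. The median distance was 36.0. The libraries share their depth across all genes, so the likeness is a description only.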

How the data were processed

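ATAC-seq peaks were analysed in 8 libraries, 2 in each of 4 labelled groups. Trimming used Trimmomatic, and peaks were called by MACS2 2.1.0 on Sscrofa11.1, per the submitters' processing notes. Alignment, duplicate handling and any read shift were not given in the sources used here, and each could alter the height or edges of a peak. The authors deposited 1 peak list per library, with a score, a fold over local background, and −log10 p and −log10 q values, all made by their peak caller. Their score was not used further.

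The Notch genes, the other lists and the tests were chosen with earlier results of these data known. Autosomal and X-linked peaks were merged across libraries, linked to gene ends and counted per library. Calls at 0 h and 60 h were compared with an exact permutation test per region. Strength was fitted with limma 3.58.1 in R 4.3.3 on quantile-normalised log2 of the authors' fold of each region's strongest peak, over all 4 groups without a replicate block, with Benjamini-Hochberg adjustment. Fits and merging were checked on simulated data. The deposited lists give no read totals, so relative depth was taken from the background floor recovered from fold and −log10 p, which gave a whole pileup for 100% of peaks at a tolerance of 0.01. No interval was therefore given for calls.

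Regions were named if they lay within 1 kb of a gene end, were closed or opened over all libraries, passed limma in any contrast, or were a gene's strongest. Those that differed between labels at the same time are given by gene, with the leading 1 by −log10 q named. The HES1 regions at 48.8 kb, 38.7 kb and 23.9 kb were added after their values were seen. So were the JAG1 regions at 6.4 kb and 47.1 kb and the counts for MAML2, DLL3 and DLL4. The closed counts of HES1 and RBPJ under other rules for a call were also added then. The alternatives were equal peak numbers (82696 per library), −log10 q of at least 5, a 50% overlap for a call, links within 10 kb or 1 kb, ranking by −log10 p, median centring, a replicate block and leaving out each library. No sequence was used, so the planned motif search was not run.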

Additional observations from a re-analysis of the deposited data

How the results depend on the processing

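Closed regions over all libraries numbered 7, or 5.93%, against 5.68% of all regions. With −log10 q of at least 5 they numbered 12 (10.2%, against 6.75%), and with a 50% overlap 15 (12.7%, against 7.93%). There were 2 for links within 10 kb, 1 within 1 kb, and 8 to 11 with a library left out. Opened regions numbered 0, and 1 (0.847%, against 0.752%) with equal peak numbers. In WT the closed count of 21 became 10 (8.47%, against 4.25% of all regions) with equal peak numbers. With −log10 q of at least 5 it was 22 (18.6%, against 15.5%), and with a 50% overlap 31 (26.3%, against 19.8%). It was 6 within 10 kb, 3 within 1 kb and 23 to 34 with a library left out. The WT opened count became 1 (0.847%, against 2.71%) with equal peak numbers and 0 to 2 with a library left out. In CBP the closed count of 14 became 22 (18.6%, against 15.2% of all regions) with −log10 q of at least 5. With a 50% overlap it was 29 (24.6%, against 19.2%). It was 3 within 10 kb, 2 within 1 kb and 18 to 30 with a library left out. The CBP opened count of 0 became 3 (2.54%, against 4.33% of all regions) with equal peak numbers. With −log10 q of at least 5 it was 1 (0.847%, against 1.05%). It was 2 (1.69%, against 1.95%) with a 50% overlap and 1 to 4 with a library left out. Between labels at 0 h, the opened count of 1 became 0 with −log10 q of at least 5, against 2.05% of all regions. It was 0 within 10 kb and within 1 kb, and 2 to 8 with a library left out. The closed count of 2 became 5 (4.24%, against 4.42%) with a 50% overlap. It was 1 within 1 kb and 3 to 8 with a library left out. At 60 h the opened count of 6 became 1 (0.847%, against 2.89% of all regions) with −log10 q of at least 5. It was 2 within 10 kb, 1 within 1 kb and 7 to 12 with a library left out. The closed count of 0 became 2 (1.69%, against 3.47%) with equal peak numbers. With −log10 q of at least 5 it was 4 (3.39%, against 2.67%). It was 3 (2.54%, against 3.25%) with a 50% overlap and 1 to 7 with a library left out. Counts for narrower links and with a library left out are given without a share of all regions. Narrower links hold fewer regions, and leaving out a library loosens the rule by construction. The cause of the other shifts was not tested.

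In strength, ranking by recovered pileup was added after seeing the data. Over both labels it gave 9 regions that fell in place of 4, and it reversed the HEY1 region at 14.9 kb (−0.12), the RBPJ regions at 19.7 kb (−0.057) and 30.4 kb (−0.11) and the HES1 region at 0.91 kb (−0.060). In WT it reversed the HEY1 regions at 14.9 kb (−0.16) and across the lower end (−0.093). The WT count of 3 that rose became 1 by pileup, 6 with equal peak numbers, 7 with median centring and 0 to 4 with a library left out; the 0 that fell became 1 by pileup and 0 to 1 with a library left out. The CBP count of 6 that rose became 10 by pileup and by median centring and 0 to 8 with a library left out, and the 4 that fell became 0 to 5. Between labels at 60 h, the 1 higher region became 5 by pileup and 0 to 1 with a library left out, and the 0 lower became 1 by −log10 p, 1 by pileup and 0 to 1 with a library left out. Median centring moved all regions in WT from 2099 higher and 2265 lower to 3513 and 2439. Of the 16 regions that changed with time, 12 held with each library left out and 8 also under every other strength alternative run: the NOTCH3 region, both NOTCH2 regions, the JAG1 and HEYL regions, and the HES1 regions at 36.03, 22.5 and 3.2 kb. Ranking by −log10 p lost the HEY1 region at 14.9 kb and all 3 RBPJ regions. The cause of these shifts was not tested.

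The deviations in strength of same-numbered libraries from their group means correlated between −0.02 and 0.02. That cannot show whether libraries of the same number share a culture or animal. With a replicate block, 0 regions rose in WT in place of 3, the exact permutation p could not go below 0.0556, and the calls of RBPJ at 4.5 kb and HES1 at 0.91 kb over both labels and of NOTCH2 at 18 kb in CBP were lost; no other call changed. The 60 h libraries were shallower, and the part of depth in the calls was not tested.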
